A study of Mus musculus with 52 samples.

Results

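The genes described here are 38 symbols that mark granulocytes, chiefly neutrophils: the proteins of their granules, their abundant cytosolic and secreted proteins, and their surface receptors. They were chosen by name, and every row carrying such a symbol was taken from 2 gene count tables of mouse bone marrow. Of the 38, 31 had a row among the 13566 genes of the haematopoietic stem cell (HSC) table and 36 among the 15168 genes of the stroma table. Ly6g and the listed symbol Cebpe2 had no row in either table, and Orm1, Cd177, Olfm4, Mmp8 and Trem1 had none for HSC, so these are not analysed here in that fraction. No listed gene was dropped by a filter on low values.

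All groups but those named below as non-irradiated were exposed to 853 cGy over the whole body, 30 min after an injection, and marrow was taken 1 h later. The injections were vehicle, sulprostone (an agonist of the prostaglandin E receptor EP3), rivenprost (an agonist of EP4), sulprostone and rivenprost together, or misoprostol, a prostaglandin E1 analogue. Stroma was also taken from irradiated mice given dmPGE2, a stable prostaglandin E2 analogue, and from mice that were not irradiated, after either vehicle or dmPGE2. The sample labels write PGE, which is read as dmPGE2 from the title of the series alone, and the design text names only vehicle for the non-irradiated mice, so that their dmPGE2 group rests on its labels. The schedule of the dmPGE2 mice is not described on its own and is read as that of the others. Each of the 13 groups held 4 mice, 2 female and 2 male, with the number in each sample title read as 1 mouse. HSC were cells with the SLAM and LKS surface profile sorted by flow cytometry, and stroma was marrow enriched on magnets for cells lacking CD45 and Ter119, so that neither fraction was prepared to hold granulocytes. The sources used here name no strain, age, genotype or dose, and the compounds are therefore compared at unknown relative doses. Levels are in CPM, the count of a gene scaled to a common TMM-adjusted library size, and the threshold of the tests is an adjusted p of 0.05.

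Neutrophils mature in the marrow, and they fill their granules in order as they mature. Promyelocytes make the azurophil granule proteins, such as myeloperoxidase and elastase, myelocytes and metamyelocytes make the specific and later granule proteins, such as lactotransferrin and lipocalin, and the mature cell relies on S100a8 and S100a9 in the cytosol and on receptors such as Cxcr2 to leave the marrow. The factors C/EBP and PU.1 drive many of these genes, and C/EBP epsilon, the product of Cebpe, is needed for the specific granule stage. CD45, which the stroma enrichment selects against, lies on the neutrophil surface.

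The 250 bases before the annotated start of 5 of the genes are printed to show the control sequence of each role group and of Il1b, whose levels in HSC are described below. They are from RefSeq on the build GRCm38.p6, and capitals mark matches to TTNNGNAA (C/EBP) or to GAGGAAG (PU.1) on either strand. Mpo encodes myeloperoxidase of the azurophil granule, and its window is at chr11:87793534-87793783 on the plus strand. Ngp encodes neutrophilic granule protein, at chr9:110419558-110419807 on the plus strand. S100a9 encodes a subunit of calprotectin, at chr3:90695722-90695971 on the minus strand. Itgam encodes the CD11b chain of the integrin Mac-1, at chr7:128062390-128062639 on the plus strand, and Il1b encodes interleukin 1 beta, at chr2:129371140-129371389 on the minus strand.
Mpo: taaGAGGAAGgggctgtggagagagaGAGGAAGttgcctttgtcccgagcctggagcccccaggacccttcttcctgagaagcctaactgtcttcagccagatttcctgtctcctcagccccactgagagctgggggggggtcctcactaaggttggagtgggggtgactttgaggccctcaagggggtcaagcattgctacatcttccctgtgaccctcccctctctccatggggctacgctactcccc
Ngp: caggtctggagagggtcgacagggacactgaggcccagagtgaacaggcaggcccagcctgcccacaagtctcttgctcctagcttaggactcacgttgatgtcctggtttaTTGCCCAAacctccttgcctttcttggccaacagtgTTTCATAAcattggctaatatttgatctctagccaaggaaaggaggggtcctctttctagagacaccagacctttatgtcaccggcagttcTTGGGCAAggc
S100a9: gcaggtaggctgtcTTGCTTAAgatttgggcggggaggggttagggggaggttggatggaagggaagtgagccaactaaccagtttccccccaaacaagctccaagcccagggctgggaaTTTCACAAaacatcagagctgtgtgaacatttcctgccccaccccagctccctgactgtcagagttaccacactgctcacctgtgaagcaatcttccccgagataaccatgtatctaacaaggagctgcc
Itgam: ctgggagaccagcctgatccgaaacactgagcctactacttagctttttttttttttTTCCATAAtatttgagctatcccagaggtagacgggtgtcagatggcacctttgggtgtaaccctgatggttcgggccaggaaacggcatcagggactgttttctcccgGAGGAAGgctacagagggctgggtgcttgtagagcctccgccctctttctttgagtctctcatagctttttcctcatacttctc
Il1b: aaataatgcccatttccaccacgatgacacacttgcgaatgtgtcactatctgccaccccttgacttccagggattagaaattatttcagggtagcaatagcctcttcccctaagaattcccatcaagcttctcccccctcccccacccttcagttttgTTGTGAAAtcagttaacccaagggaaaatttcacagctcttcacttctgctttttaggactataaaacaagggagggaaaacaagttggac

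A promoter was listed for 31 of the 38 symbols, against 27025 promoters in all. The C/EBP letters TTNNGNAA occurred in 20 of the 31 (64.5%) and in 36.9% of all promoters, and the PU.1 letters GAGGAAG in 13 (41.9%) and in 10.4% of all. The RUNX letters TGTGGT occurred in 5 (16.1%) and in 14.2% of all. The cAMP response element TGACGTCA, searched because EP4 signals through cAMP, occurred in 0 of the 31 and in 1.62% of all. Both strands were searched, no match of 1 motif overlapped one of another in the promoters of the listed genes, and such matches describe letters, not bound sites. Among the printed windows, that of Ngp held 3 C/EBP matches, that of S100a9 held 2, that of Mpo held 2 PU.1 matches and none for C/EBP, and that of Il1b held 1 C/EBP match.

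Depth was 27.38 to 49.17 M counts a library in HSC and 38.03 to 73.7 M in stroma. One HSC library stood apart: sulprostone replicate 1, from a male mouse, carried far more granulocyte RNA than any other HSC library, and the HSC comparisons with sulprostone below are given with and without it. The HSC markers (11 genes such as Hlf, Mecom and Slamf1) summed to 1366 CPM there and to 2012 to 2885 CPM in the other 19 libraries. Mesenchymal markers (10 genes such as Cxcl12 and Lepr) summed to 5652 to 66748 CPM in the 32 stroma libraries, and endothelial markers to 314 to 756 CPM. The 2 highest mesenchymal sums, 66748 and 43521 CPM, were in replicate 4 of the non-irradiated vehicle and dmPGE2 groups. The next highest was 27918 CPM. Ptprc, which encodes CD45, was measured at 70.4 to 294 CPM in stroma. HSC and stroma libraries were made with different kits from different amounts of RNA, so levels are not compared between the fractions.

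Granulocyte RNA was present in every stroma library. In the irradiated vehicle group and in both dmPGE2 groups its amount varied more between mice than it did between the group means. It varied less than that between mice given sulprostone, rivenprost or both agonists. The 36 genes together took 0.169% to 1.78% of the counts of a stroma library. Their summed level in irradiated vehicle mice was 18070, 7605, 17157 and 5368 CPM (12050 ± 6500, SD, n = 4). Replicates 1 and 3, 1 female and 1 male, carried more than the other pair by a wide margin.

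After sulprostone the sums were 6455, 9246, 7139 and 7112 CPM (7488 ± 1214), and after rivenprost 7196, 8534, 7596 and 5387 CPM (7178 ± 1319). All 8 of these libraries lay within the range of the vehicle mice and beneath their mean. With both agonists the sums were 6793, 5363, 6975 and 5127 CPM (6065 ± 954), and after misoprostol 3582, 6851, 2895 and 7800 CPM (5282 ± 2408). Here 2 of 4 libraries of either group lay under the lowest vehicle library, and 2 of 4 lay within the vehicle range. The group means were 0.621, 0.596, 0.503 and 0.438 of the vehicle mean for sulprostone, rivenprost, both agonists and misoprostol. All 4 ratios share the same vehicle mice and so move together.

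After dmPGE2 the groups split widely. The sums were 11351, 4923, 18234 and 2954 CPM in irradiated mice (9366 ± 6915), and 2479, 10346, 1811 and 14298 CPM in non-irradiated mice (7234 ± 6099). Each dmPGE2 group had 2 libraries under the range of its vehicle group, 1 within and 1 above. Non-irradiated vehicle mice had sums of 9644, 8254, 14014 and 6615 CPM (9632 ± 3173), so the irradiated vehicle mice overlapped them on both sides. In bulk RNA such as this, fewer granulocytes and less RNA in each granulocyte cannot be told apart.

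**Figure D1:**
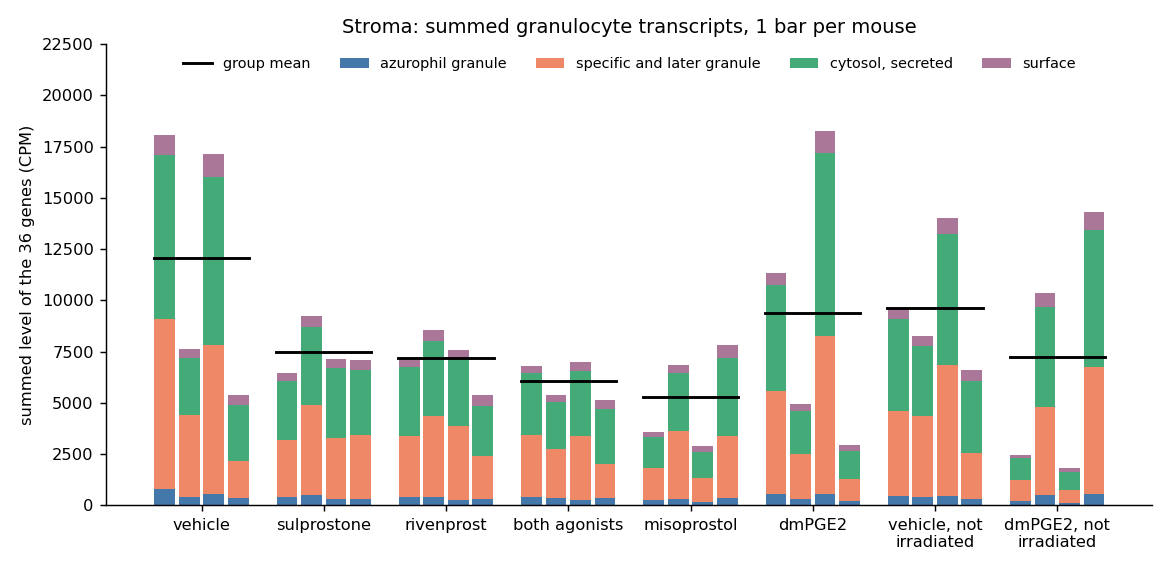
Summed level of the 36 genes in each stroma library, in CPM, 1 bar a mouse, stacked by role, with a line at each group mean. Vehicle mice range from 5368 to 18070 CPM, misoprostol mice from 2895 to 7800 CPM, and the 2 dmPGE2 groups hold both very low and very high libraries.

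The titles of the stroma samples number the mice in 2 ranges, 715 to 730 and 780 to 1022, with 2 mice of each group in each. The upper range is not continuous. Replicate 4 of the non-irradiated vehicle and dmPGE2 groups, the last of them numbered 1022, lies apart in number from all irradiated mice. What the ranges stand for is not given. In the lower range the vehicle mean was 12838 CPM and those of sulprostone, rivenprost, both agonists and misoprostol were 7851, 7865, 6078 and 5217 CPM. In the upper range the vehicle mean was 11262 CPM and the others were 7125, 6491, 6051 and 5347 CPM. The means with irradiated dmPGE2 were 8137 and 10594 CPM. Vehicle was thus above each of these groups in the means of either range, but each mean is of 2 mice. The vehicle mice were at 7605 and 18070 CPM in the lower range and at 5368 and 17157 CPM in the upper. The lower vehicle mouse lay under the higher sulprostone and rivenprost mice in either range (9246 and 8534 CPM, then 7139 and 7596 CPM).

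Monocyte and macrophage markers were also at a lower mean in the treated groups. Their sum over 13 genes was 1583 ± 351 CPM with vehicle, 1285 ± 125.3 with sulprostone, 1239 ± 220 with rivenprost, 1011 ± 298 with both agonists and 1113 ± 286 with misoprostol. It was 1057 ± 177 with dmPGE2, and 1575 ± 182 and 1156 ± 332 in non-irradiated mice with vehicle and dmPGE2. The library ranges ran from 1188 to 2023 CPM with vehicle and from 600 to 1291 with both agonists. None of the 13 markers was called in any comparison with a control. Their median log2 fold change was -0.55 with both agonists, where that of 10 mesenchymal, 7 megakaryocyte and 9 T and NK cell markers was -0.51, -0.63 and -0.51. With dmPGE2 in irradiated mice these 4 medians were -0.41, -0.50, -0.41 and -0.27, and with misoprostol -0.55, -0.10, 0.11 and -0.25. With sulprostone they were -0.33, -0.20, -0.22 and -0.10, with rivenprost -0.35, -0.20, 0.48 and -0.08, and with dmPGE2 without irradiation -0.34, -0.64, -0.62 and -0.24. The medians of the other 5 marker lists (B cell, endothelial, erythroid, HSC, and mast cell, basophil and eosinophil) lay on both sides of 0. With both agonists they were 0.50, 0.19, 0.07, -0.18 and -0.30, with 1 of 10 B cell markers called as lower. The part of these cells in the granulocyte result was not tested.

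No granulocyte gene passed the test in any stroma comparison, by edgeR's quasi-likelihood test with Benjamini-Hochberg adjustment over all genes. The share of all genes called was 0.105% with sulprostone, 1.13% with rivenprost, 3.09% with both agonists, 0.916% with misoprostol and 1.98% with dmPGE2, against irradiated vehicle. It was 0.771% for irradiation in vehicle mice, 3.76% for dmPGE2 in non-irradiated mice and 0.0264% for the interaction of dmPGE2 with irradiation. At an unadjusted p under 0.05 the granulocyte genes numbered 0, 2, 8, 22 and 1 of 36 for the 5 treatments of irradiated mice in that order. The same unadjusted share of all genes was 3.93%, 9.96%, 17.9%, 11% and 16.4%. For irradiation, dmPGE2 without irradiation and the interaction, 0, 1 and 0 of 36 had an unadjusted p under 0.05, against 9.19%, 17% and 2.5% of all genes. DESeq2 called Cxcr2 with both agonists, and Cxcr2 and Mmp9 with misoprostol, and none of the 36 in the other comparisons with a control. DESeq2 also called more of all genes than edgeR: 5.82% with both agonists and 2.49% with misoprostol, and 0.251%, 2.29% and 4.42% with sulprostone, rivenprost and dmPGE2. It called 1.64% for irradiation, 6.39% for dmPGE2 without irradiation and 0.0989% for the interaction. The 1 of 36 with both agonists (2.78%) lay under that share, and the 2 of 36 with misoprostol (5.56%) above it.

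The fitted values nevertheless leaned one way. Against irradiated vehicle, 36 of 36 genes had a lower fitted value with sulprostone, 35 with rivenprost, 35 with both agonists, 36 with misoprostol and 34 with dmPGE2, while 49.4%, 43.9%, 47.3%, 45.8% and 48.1% of all genes did. Their median log2 fold changes were -0.69, -0.74, -1.0, -1.17 and -0.42, where the median of all genes lay between 0 and 0.04. Without vehicle replicate 1, which has the highest sum of its group, these medians were -0.35, -0.39, -0.63, -0.78 and -0.13, and the misoprostol comparison had 4 genes at an unadjusted p under 0.05, all 4 among the 22, against 9.09% of all genes. Without misoprostol replicate 3, the lowest of its group, there were also 4, again all among the 22, against 8.29% of all genes. Irradiation in vehicle mice gave a median of 0.33 with 35 of 36 higher, and -0.0016 without the same vehicle replicate 1. The genes share libraries and vary together, so these counts are not independent of each other.

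**Figure D2:**
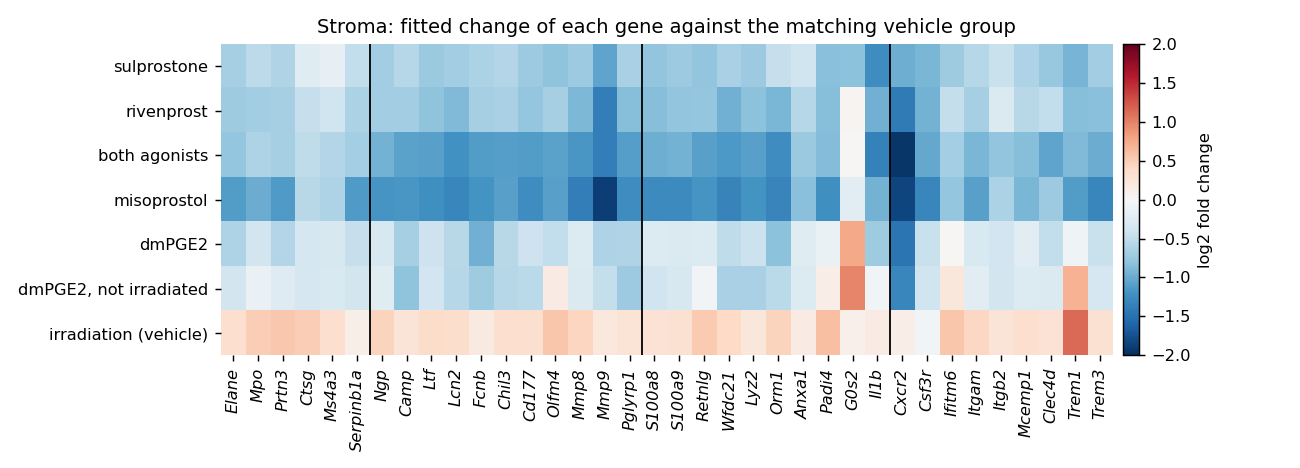
Fitted log2 fold change of the 36 genes in stroma against irradiated vehicle, or against non-irradiated vehicle for the rows on dmPGE2 without irradiation and on irradiation; lines part the role groups. Blue covers the 4 agonist rows with G0s2 near 0 in rivenprost and both agonists, and no cell passed the adjusted test.

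Among the azurophil granule genes, Mpo (myeloperoxidase, which makes hypochlorous acid) was the most abundant per transcript length, at a mean of 87.8 CPM per kb. Its levels were 484, 248, 338 and 206 CPM in vehicle mice and 163, 160, 104 and 217 CPM after misoprostol. Only the fourth misoprostol library reached the vehicle range (log2 fold change -0.99 ± 0.38 SE, adjusted p = 0.264). Elane, neutrophil elastase, had levels of 98.5, 69.5, 70 and 28.6 CPM with vehicle and 30.9, 44.1, 14.1 and 34.3 CPM with misoprostol, and the groups overlapped (-1.11, adjusted p = 0.341). Prtn3, proteinase 3, gave -1.13 (adjusted p = 0.282).

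Serpinb1a encodes an inhibitor that guards the cell against its own elastase and proteinase 3, and is grouped here with the azurophil genes. It was at 79.3, 31.5, 69.6 and 33.2 CPM with vehicle and at 17.7, 28.1, 20.3 and 30.7 CPM with misoprostol. It was the 1 gene of the 36 whose misoprostol libraries all lay under all vehicle libraries, a pattern that 3.34% of all genes showed. Its fold change did not pass the adjusted test (-1.14 ± 0.38, adjusted p = 0.184). Ctsg, cathepsin G, and Ms4a3, a membrane protein of granulocyte and monocyte progenitors, varied least between libraries, with a highest level 3.14 and 3.79 times the lowest, where Mpo varied 7.24-fold and Cxcr2 23.7-fold.

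Averaged over the 4 mice of a group, the 4 most abundant azurophil genes had their highest mean in irradiated vehicle mice. Mpo was at 319 ± 122.9 CPM (mean ± SD, n = 4) with vehicle, 220.0 ± 47.9 with sulprostone, 198 ± 33.3 with rivenprost, 209 ± 34.99 with both agonists, 161 ± 46.4 with misoprostol and 247 ± 123.5 with dmPGE2, and 226 ± 39.4 and 209 ± 130.4 without irradiation with vehicle and dmPGE2. Elane was at 66.7 ± 28.8 CPM with vehicle, 42.3 ± 15.9 with sulprostone, 40.9 ± 11.9 with rivenprost, 38.7 ± 8.1 with both agonists, 30.8 ± 12.51 with misoprostol and 43.4 ± 22.96 with dmPGE2, and 52.6 ± 11.8 and 40.4 ± 26.2 without irradiation with vehicle and dmPGE2. The irradiated vehicle group also had the widest or nearly the widest spread of the irradiated groups for both. Serpinb1a stood at 53.4 ± 24.6 CPM with vehicle, 38.2 ± 5.68 with sulprostone, 34.6 ± 4.94 with rivenprost, 33.3 ± 4.6 with both agonists, 24.2 ± 6.18 with misoprostol and 39.4 ± 19.1 with dmPGE2, and 49.3 ± 14.5 and 38.01 ± 24.6 without irradiation with vehicle and dmPGE2. The level of Ctsg was 48.3 ± 14.7 CPM with vehicle, 40.01 ± 10.2 with sulprostone, 35.02 ± 9.65 with rivenprost, 33.5 ± 9.76 with both agonists, 32.4 ± 11.4 with misoprostol and 37.2 ± 8.09 with dmPGE2, and 33.5 ± 7.67 and 26.4 ± 7.83 without irradiation with vehicle and dmPGE2. Ctsg is the 1 gene of these whose lowest mean was in the non-irradiated dmPGE2 group.

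The specific and later granule genes made up the largest part of the sum together with the cytosolic genes, at 32.4% to 52.1% of it in a library. Ngp led them at a mean of 1055 CPM per kb, ahead of Camp (the cathelicidin precursor, 378), Lcn2 (the siderophore-binding lipocalin 2, 357), Chil3 (a chitinase-like protein, 311) and Ltf (lactotransferrin, which binds iron, 286). Ngp was at 3026, 1285, 2422 and 546 CPM in vehicle mice, at 1002, 1463, 1036 and 1037 after sulprostone and at 585, 1105, 431 and 1074 after misoprostol. The vehicle mice alone spanned more than the distance between the groups, and the 3 groups overlapped. The log2 fold changes of Ngp were -0.69, -0.70, -0.95 and -1.18 with sulprostone, rivenprost, both agonists and misoprostol, with adjusted p of 1, 0.79, 0.402 and 0.497.

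The means of the 4 most abundant specific granule genes followed 1 order at the top, with irradiated vehicle first. Ngp averaged 1820 ± 1114 CPM (mean ± SD, n = 4) with vehicle, 1135 ± 219.5 with sulprostone, 1138 ± 313 with rivenprost, 944 ± 292 with both agonists, 799 ± 342 with misoprostol and 1482 ± 1127 with dmPGE2, and 1365 ± 516 and 1114 ± 1007 without irradiation with vehicle and dmPGE2. Ltf averaged 1200 ± 695 CPM with vehicle, 724 ± 141.6 with sulprostone, 699.6 ± 191 with rivenprost, 569.5 ± 184 with both agonists, 512 ± 248 with misoprostol and 919.9 ± 703 with dmPGE2, and 954 ± 458 and 690.4 ± 635 without irradiation with vehicle and dmPGE2. Either gene had an SD of more than 500 CPM in vehicle and in both dmPGE2 groups. Chil3 averaged 729 ± 281 CPM with vehicle, 487 ± 141.2 with sulprostone, 466 ± 60.95 with rivenprost, 339 ± 39.7 with both agonists, 342 ± 209.6 with misoprostol and 498 ± 288 with dmPGE2, and 582 ± 284 and 389 ± 348 without irradiation with vehicle and dmPGE2. Lcn2 averaged 483 ± 291 CPM with vehicle, 304 ± 89.95 with sulprostone, 267 ± 92.3 with rivenprost, 211 ± 62.3 with both agonists, 196 ± 110.2 with misoprostol and 338 ± 266 with dmPGE2, and 386 ± 141.7 and 249.5 ± 229 without irradiation with vehicle and dmPGE2. The lowest mean was with misoprostol for Ngp, Ltf and Lcn2 and with both agonists for Chil3.

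Mmp9, the gelatinase of the later granules, had the largest misoprostol difference of the 36 genes. It was at 327, 119.4, 419 and 63.8 CPM with vehicle and 40.2, 93.6, 44.8 and 70.6 CPM with misoprostol, so that 2 misoprostol libraries lay inside the vehicle range (-1.89 ± 0.57, adjusted p = 0.122). DESeq2 called this gene (-1.92, adjusted p = 0.0207). Over the alternatives tried its adjusted p ranged from 0.0207 to 0.419. Ltf, Lcn2, Camp, Chil3 and Cd177, a surface antigen carried on these granules, had fitted misoprostol differences of -1.22, -1.31, -1.16, -1.09 and -1.25, with adjusted p from 0.396 to 0.473.

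S100a9 and S100a8, whose products pair as calprotectin, were the most abundant per length of all 36, at means of 2728 and 2223 CPM per kb. They held 17.2% to 33.2% of the sum. S100a8 was at 2160, 666, 2029 and 363 CPM with vehicle, 801, 988, 747 and 391 with rivenprost and 373, 762, 272 and 732 with misoprostol. Vehicle replicates 1 and 3 stood far above every library of sulprostone, rivenprost, both agonists and misoprostol, and the other pair of vehicle mice lay among these. Irradiated dmPGE2 replicate 3, at 2229 CPM, was above all vehicle mice. The ratio of S100a9 to S100a8 stayed between 1.48 and 1.85 in all 32 libraries while S100a8 itself ranged 16.8-fold. The fitted differences of S100a8 ran from -0.79 with sulprostone to -1.28 with misoprostol, with adjusted p of 1 and 0.507.

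Of the cytosolic and secreted genes, 4 had the highest levels. S100a9 had 2112 ± 1489 CPM (mean ± SD, n = 4) with vehicle, 1298 ± 268 with sulprostone, 1236 ± 392 with rivenprost, 1099 ± 327 with both agonists, 863 ± 389.7 with misoprostol and 1755 ± 1503 with dmPGE2, and 1722 ± 549.5 and 1350 ± 1260 without irradiation with vehicle and dmPGE2. S100a8 had 1305 ± 922 CPM with vehicle, 758 ± 134.1 with sulprostone, 732 ± 249.5 with rivenprost, 666 ± 161 with both agonists, 535 ± 249 with misoprostol and 1100 ± 946 with dmPGE2, and 1072 ± 378 and 804 ± 733 without irradiation with vehicle and dmPGE2. For the pair the SD of either dmPGE2 group was nearly as large as its mean. Lyz2 had 1405 ± 461 CPM with vehicle, 853 ± 211 with sulprostone, 803 ± 205 with rivenprost, 676 ± 382 with both agonists, 637 ± 567 with misoprostol and 1006 ± 693 with dmPGE2, and 1163 ± 437 and 773 ± 602 without irradiation with vehicle and dmPGE2. Anxa1 had 274 ± 104 CPM with vehicle, 207 ± 28.9 with sulprostone, 184 ± 23.4 with rivenprost, 164 ± 25.5 with both agonists, 154 ± 43.1 with misoprostol and 231 ± 133.6 with dmPGE2, and 246 ± 55.2 and 202 ± 132.6 without irradiation with vehicle and dmPGE2. All 4 genes had their highest mean with irradiated vehicle and their lowest with misoprostol.

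Lyz2, lysozyme, is made by macrophages as well as neutrophils and followed the others less closely. Its levels were 1540, 748, 1827 and 1506 CPM with vehicle and 321, 411, 331 and 1486 with misoprostol. Thus 3 misoprostol libraries were under every vehicle library and the fourth was among them (-1.19, adjusted p = 0.368). Il1b, at 51.6, 14.5, 61.6 and 5.35 CPM with vehicle, had 22.7, 13, 12.2 and 8.10 CPM with sulprostone and 14.7, 13.3, 15.46 and 8.67 with both agonists. The low vehicle libraries lay among or under the treated ones, and the fitted differences were -1.24 (adjusted p = 1) and -1.35 (adjusted p = 0.294).

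Of the surface genes, Cxcr2, the receptor for the neutrophil attractants Cxcl1 and Cxcl2, had the largest spread and the largest fitted difference. It was at 86.1, 28.7, 151 and 32 CPM with vehicle, 16.3, 16.3, 23.0 and 21.1 with both agonists, and 14.9, 22.0, 10.7 and 34.8 with misoprostol. All 4 libraries with both agonists lay under all vehicle libraries, as they did for 5.70% of all genes, and 1 misoprostol library lay inside the vehicle range. The log2 fold changes were -1.94 ± 0.59 (adjusted p = 0.0708) and -1.83 ± 0.59 (adjusted p = 0.165), and -0.97 (adjusted p = 1) and -1.41 (adjusted p = 0.363) for sulprostone and rivenprost. DESeq2 gave -2.0 (adjusted p = 0.0115) with both agonists and -1.85 (adjusted p = 0.0414) with misoprostol. Without vehicle replicate 3 the value with both agonists was -1.33, and its adjusted p ranged from 0.0115 to 0.315 over the alternatives. Csf3r, the receptor for G-CSF, was at 58.3, 20.2, 103 and 22.3 CPM with vehicle and 16.7, 16.2, 17.4 and 30.5 with misoprostol (-1.30, adjusted p = 0.384). Itgam and Itgb2, the chains of Mac-1, gave -1.09 and -0.64 (adjusted p of 0.365 and 0.522). Trem1, a receptor that amplifies inflammatory signals, had the largest fitted difference with irradiation among the 36 genes, at 1.14, and 0.65 without vehicle replicate 1.

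Itgb2, Itgam, Ifitm6 and Cxcr2 were the most abundant surface genes in CPM. Itgb2 stood at 253 ± 70.95 CPM (mean ± SD, n = 4) with vehicle, 185 ± 37.1 with sulprostone, 207 ± 42.4 with rivenprost, 147 ± 31.9 with both agonists, 162 ± 59.8 with misoprostol and 194 ± 70.8 with dmPGE2, and 210.5 ± 58.3 and 164 ± 98.6 without irradiation with vehicle and dmPGE2. Itgam stood at 186 ± 79.5 CPM with vehicle, 125.9 ± 18.5 with sulprostone, 117.8 ± 7.65 with rivenprost, 99.1 ± 13.7 with both agonists, 87.8 ± 42.9 with misoprostol and 150.4 ± 104 with dmPGE2, and 139.4 ± 47.5 and 120.3 ± 95.2 without irradiation with vehicle and dmPGE2. Itgb2 encodes the beta 2 integrin chain that pairs with the Itgam product on leukocytes. Ifitm6 stood at 57.3 ± 34.3 CPM with vehicle, 35.3 ± 8.98 with sulprostone, 41.4 ± 8.58 with rivenprost, 35.8 ± 7.98 with both agonists, 33.5 ± 19.9 with misoprostol and 59.1 ± 42.5 with dmPGE2, and 38.9 ± 14.9 and 44.6 ± 42.1 without irradiation with vehicle and dmPGE2. Cxcr2 stood at 74.5 ± 57.5 CPM with vehicle, 37.8 ± 5.58 with sulprostone, 27.9 ± 6.54 with rivenprost, 19.2 ± 3.42 with both agonists, 20.6 ± 10.5 with misoprostol and 27.1 ± 23.4 with dmPGE2, and 67.01 ± 13.2 and 27.03 ± 23.8 without irradiation with vehicle and dmPGE2. Ifitm6 was the 1 gene of the 4 with its highest mean in the irradiated dmPGE2 group.

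Direct comparisons among the 5 compound groups of irradiated stroma, 10 pairs in all, called 0 of the 36 genes by edgeR. Of all genes, 0.033%, 1.67%, 0.0132% and 1.28% were called for rivenprost, both agonists, misoprostol and dmPGE2 against sulprostone, and 0% for the other 6 pairs. Summed over the pairs, 2 results of the 36 genes had an unadjusted p under 0.05, against 7.76% of the results of all genes, and DESeq2 called 1, against 1.02% of the results of all genes. Cxcr2 is an example: misoprostol against sulprostone, with the summed level held constant as described next, gave -0.39 with a 95% interval of -0.88 to 0.11. That interval does not show that the compounds acted alike on it.

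Across the 32 stroma libraries the genes varied together. As a description, with libraries and depth shared by all points, the correlation of the log2 level of a gene with the log2 summed level of the others was 0.48 for G0s2, 0.50 for Ctsg, 0.66 for Lyz2 and 0.76 for Il1b, and 0.80 or more for the remaining 32, up to 0.99 for Cd177 and Trem3. G0s2 restrains fat breakdown and is made in many cell types. The 10 genes outside the list whose levels were most like the sum, over the 32 libraries, were Chil1 (r = 0.981), Itgb2l, Fpr2, Mmp25, Gca, C5ar1, Abca13, Pram1, AA467197 and Ltb4r1 (r = 0.952). They include chemotactic receptors (Fpr2, C5ar1, Ltb4r1) and a granule-associated calcium-binding protein (Gca).

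**Figure D3:**
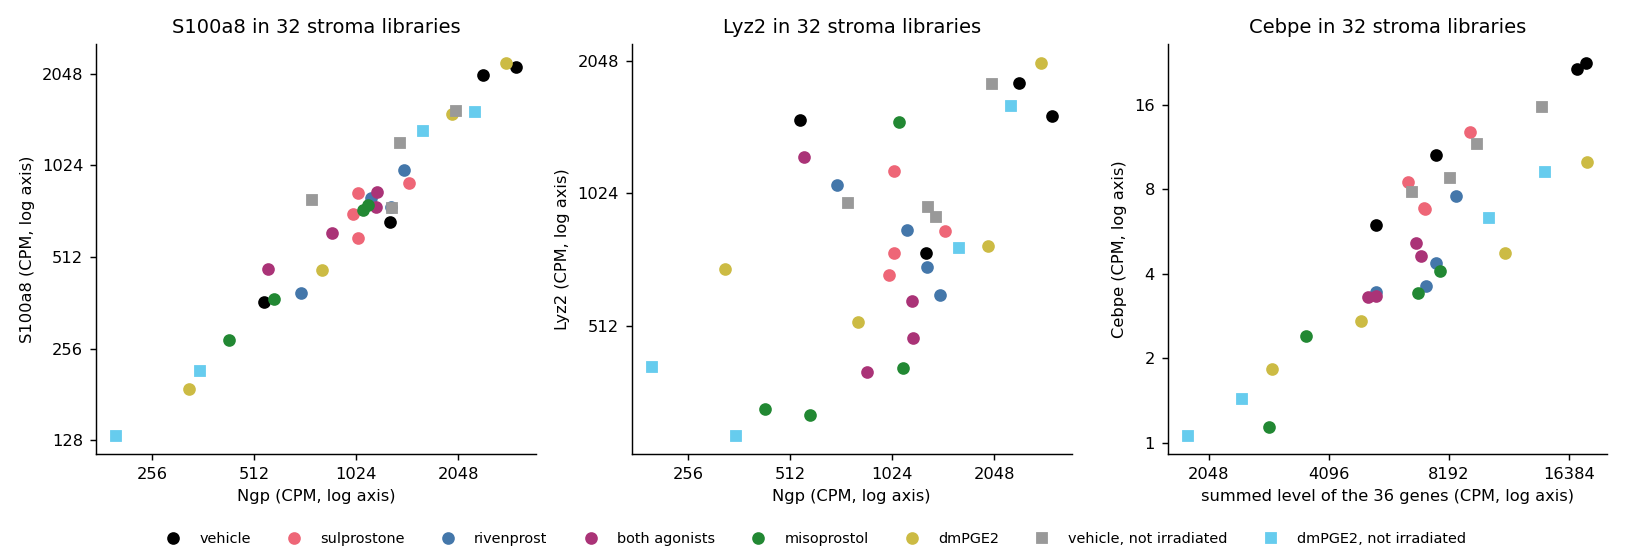
Levels in the 32 stroma libraries, in CPM on log axes: S100a8 against Ngp, Lyz2 against Ngp, and Cebpe against the summed level of the 36 genes, coloured by group. S100a8 follows Ngp over the whole range, Lyz2 scatters, and Cebpe at a given sum sits higher in vehicle and sulprostone libraries than in those of rivenprost, both agonists, misoprostol or dmPGE2.

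Since the amount of granulocyte RNA differed so much between mice, the levels were also read relative to it. The log2 summed level of a library was added to the fit of all stroma genes as a covariate, a choice made after seeing the data, and one in which the members are themselves part of the covariate. Of the 36 genes this fit called Cxcr2 with dmPGE2 in irradiated mice, and Cxcr2, G0s2 and Ifitm6 with dmPGE2 in non-irradiated mice. The shares of all genes called were 1.95% and 4.21% in these comparisons. It called 0 of the 36 with sulprostone, rivenprost, both agonists, misoprostol, irradiation or the interaction, where it called 0.0593%, 1.17%, 2.29%, 0.732%, 0.798% and 0.033% of all genes.

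Cxcr2 per 1000 CPM of the sum was 3.77 to 8.81 in irradiated vehicle and 2.29 to 3.37 in irradiated dmPGE2 libraries, and 5.11 to 11.7 against 3.51 to 3.91 without irradiation. The ranges did not overlap in either pair, as for 0.0989% and 0.0923% of all genes put on the same scale and lower in the treated group. In the covariate fit Cxcr2 fell by 1.03 in both settings on the log2 scale (adjusted p = 0.0219 and 0.0152), and the call held in 4 and 6 of 8 fits that left out 1 library of the groups compared, with adjusted p of up to 0.124 and 0.0914. The interaction with irradiation was -0.01 (95% interval -0.70 to 0.68). G0s2 per 1000 CPM of the sum was 0.697 to 1.40 in non-irradiated vehicle and 1.52 to 5.5 in non-irradiated dmPGE2 libraries, and rose by 1.33 (adjusted p = 0.0352), called in 3 of 8 such fits. The G0s2 ranges did not overlap, nor did those of Ifitm6 in the same direction (1.31% of all genes) or of Wfdc21 in the other. Ifitm6, a small membrane protein of the interferon-induced family, rose by 0.59 (adjusted p = 0.036), also called in 3 of 8. In irradiated mice G0s2 and Ifitm6 likewise lay above vehicle without overlap on this scale with dmPGE2 (0.475% of all genes), and G0s2 did with misoprostol (3.98%), without passing the test. Among the pairs of compounds the covariate fit called 1 gene of the 36: G0s2 was higher with dmPGE2 than with sulprostone by 1.40 (adjusted p = 0.0421, called in 1 of 8 fits without 1 library), where 0.363% of all genes were called as higher.

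Cebpe, which is not among the listed genes but drives the specific granule stage, was one of the genes of the neighbouring lists whose level departed from the granulocyte RNA around it. It was taken from a list of 12 granulopoiesis factors. Its level was 22.6, 10.6, 21.4 and 5.96 CPM with vehicle, 8.47, 12.8, 6.79 and 6.84 with sulprostone, 3.63, 7.56, 4.37 and 3.46 with rivenprost, 5.17, 3.35, 4.62 and 3.32 with both agonists, and 2.41, 3.41, 1.14 and 4.08 with misoprostol. The libraries of misoprostol and of both agonists lay under all vehicle and all sulprostone libraries. Against vehicle, 3.34% and 5.7% of all genes lay under in the same way with misoprostol and both agonists. In the fit without the covariate it fell with misoprostol (-2.43 ± 0.58, adjusted p = 0.0385), which was lost under some alternatives, with adjusted p of up to 0.143 over the alternatives.

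Relative to the granulocyte sum the separation was sharper. Cebpe per 1000 CPM of the sum was 1.11 to 1.40 with vehicle, 0.951 to 1.38 with sulprostone, 0.505 to 0.885 with rivenprost, 0.624 to 0.760 with both agonists, 0.395 to 0.673 with misoprostol and 0.417 to 0.623 with dmPGE2. In non-irradiated mice it was 1.07 to 1.20 with vehicle and 0.580 to 0.646 with dmPGE2. Sulprostone overlapped vehicle, and the other 4 treatments of irradiated mice and dmPGE2 without irradiation did not overlap their vehicle group. Such a separation towards lower values was found for 0.0725%, 0.119%, 0.0593% and 0.0989% of all genes with rivenprost, both agonists, misoprostol and dmPGE2, and for 0.0923% with dmPGE2 without irradiation.

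In the covariate fit, by edgeR's quasi-likelihood test, Cebpe fell by 0.93 with rivenprost (adjusted p = 0.00736), 0.88 with both agonists (0.00723), 1.25 with misoprostol (0.00115), 1.22 with dmPGE2 (0.000639) and 0.90 with dmPGE2 in non-irradiated mice (0.00465), on the log2 scale. Each of these 5 calls held in 8 of 8 fits that left out 1 library. With sulprostone the value was -0.12 (95% interval -0.48 to 0.25, adjusted p = 0.999). Tested directly against sulprostone, Cebpe was lower with both agonists by a log2 difference of -0.77 (adjusted p = 0.024), with misoprostol by -1.13 (adjusted p = 0.0125) and with dmPGE2 by -1.11 (adjusted p = 0.00403), calls that held in 2, 3 and 8 of 8 fits without 1 library. The same test for rivenprost gave -0.82 (95% interval -1.18 to -0.45) and missed the threshold (adjusted p = 0.0756). Lower calls made up 1.36%, 0.0132%, 1.16% and 0.0132% of all genes in these 4 comparisons. Among the 4 groups other than sulprostone, no pair differed past the threshold in Cebpe, with intervals from -0.73 to 0.41.

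Other genes of the neighbouring lists were called in stroma. Fpr1, the receptor for formylated bacterial peptides, fell with both agonists (-2.37, adjusted p = 0.0255, up to 0.133 over the alternatives, with -1.84 without vehicle replicate 3), and by 1.29 in the covariate fit (adjusted p = 0.0283, called in 2 of 8 fits without 1 library). The covariate fit also called it lower with dmPGE2 in irradiated (-1.29, adjusted p = 0.0253, 3 of 8) and non-irradiated mice (-1.32, adjusted p = 0.0209, 5 of 8). Cebpd is a C/EBP factor induced in stress and also made by stromal cells. By edgeR it was called as higher with rivenprost (1.64, adjusted p = 0.0331) and with misoprostol (1.81, adjusted p = 0.0171). Over the alternatives the adjusted p reached 0.191 and 0.0858. With sulprostone Cebpd was not called. All its libraries (44.78 to 65.9 CPM) lay above all vehicle libraries (17.14 to 33.16 CPM), a pattern of 1.6% of all genes. Those of misoprostol (45.99 to 122.6 CPM) did so too, as for 3.63% of all genes. Libraries of rivenprost (31.36 to 157.5 CPM) and of both agonists (32.28 to 96.75 CPM) overlapped vehicle. Cebpb, the C/EBP factor of emergency granulopoiesis, rose with dmPGE2 in irradiated (1.21, adjusted p = 0.0316) and in non-irradiated mice (2.08, adjusted p = 0.000224), the first with an adjusted p of up to 0.164. In the covariate fit Cebpb rose with rivenprost (1.33, adjusted p = 0.0149), both agonists (1.18, adjusted p = 0.0239) and misoprostol (1.41, adjusted p = 0.0201), called in 4, 3 and 3 of 8 fits without 1 library. With dmPGE2 it rose there by 1.38 (adjusted p = 0.00739, 7 of 8), and by 2.28 without irradiation (adjusted p = 3.58e-05, 8 of 8), and with sulprostone its value was 0.56 (95% interval -0.01 to 1.13, adjusted p = 0.999). Adam8, a metalloprotease of leukocytes, and Cxcl2 were called in that fit with dmPGE2 without irradiation (1.02, adjusted p = 0.00323, and 2.47, adjusted p = 0.0247), in 8 and 3 of 8 fits without 1 library. Cebpb and Cebpd are expressed in many cell types, and bulk RNA does not tell which cells carried the change.

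In HSC the same genes were scarce, with the exception of sulprostone replicate 1. The 31 genes summed to 1060 to 1970 CPM, or 0.114% to 0.194% of counts, in 19 of the 20 libraries. In sulprostone replicate 1 they summed to 19098 CPM, or 1.68% of counts. In the other 3 sulprostone mice the sums were 1737, 1131 and 1276 CPM, and in vehicle mice 1282, 1143, 1347 and 1381 CPM. The sums were 1574, 1445, 1504 and 1305 CPM with rivenprost, 1524, 1657, 1553 and 1413 with both agonists and 1970, 1479, 1060 and 1494 with misoprostol. All 4 libraries with both agonists lay above all vehicle libraries, and the other groups overlapped vehicle. The specific granule genes alone went the other way, summing to 34.3 to 154.7 CPM with vehicle and 13.2 to 28.7 with both agonists. These 2 ranges did not overlap. Lyz2 alone was at 362 to 608 CPM with vehicle and 544 to 718 with both agonists.

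Of the 31 genes, 27 had their highest level of the 20 libraries in sulprostone replicate 1, as did 11.8% of all genes. At least 10-fold above the next library were 10 of the 31 and 0.287% of all genes, and the median ratio of the 31 was 5.37. The leading genes were S100a9, at 3066 CPM against at most 32.1 elsewhere (95.5-fold), and S100a8, at 3778 against at most 41.9 (90.2-fold). Specific granule genes followed, with Lcn2 52.8-fold, Camp 38.2-fold, Chil3 35.0-fold, Ltf 33.5-fold and Ngp 20.3-fold above the next library.

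The azurophil granule genes, made earlier in maturation, stood out less. Elane was at 510 CPM against at most 138.5, Mpo at 781 against 261, Ctsg at 175 against 23.0 and Prtn3 at 314 against 243, and Prtn3 was measured at 103 CPM or more in all 20 libraries. The highest other level of Elane, Mpo and Ctsg was in sulprostone replicate 2. The azurophil group, in which Serpinb1a is counted, made up 10.7% of the sum in replicate 1 and 19.6% to 47.6% in the other 19. Specific granule genes made up 25.9% against 0.868% to 12.1%. In the other 19 the medians of Prtn3 and Serpinb1a were 159 and 167 CPM, against 4.14 and 29.7 for Elane and Mpo. Whether these shares reflect the stage of granulocytes was not tested. The 4 genes not at their highest there were Serpinb1a, Padi4 (the enzyme that citrullinates histones), Il1b and Csf3r, all of which the other HSC libraries also expressed.

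**Figure D4:**
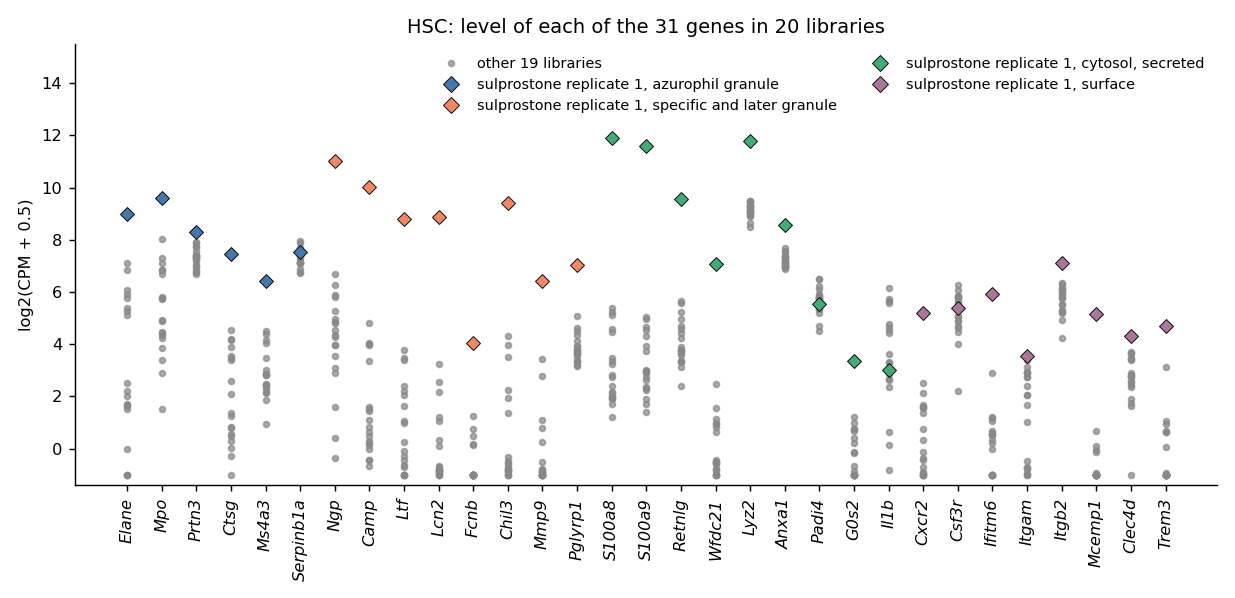
Level of each of the 31 genes in the 20 HSC libraries as log2(CPM + 0.5), with sulprostone replicate 1 as coloured diamonds by role and the other 19 libraries as grey points. The diamonds of S100a8, S100a9 and the specific granule genes lie far above the grey points, those of Serpinb1a, Padi4, Il1b and Csf3r among them.

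Prtn3, Serpinb1a, Mpo and Elane had the highest means of the azurophil genes over the 20 HSC libraries, Elane through sulprostone replicate 1, with a median of 4.14 CPM in the other 19 against 6.58 for Ms4a3. Prtn3 was at 172 ± 51.3 CPM (mean ± SD, n = 4) with vehicle, 191 ± 93.9 with sulprostone (108 to 212 in replicates 2 to 4), 141.4 ± 26.2 with rivenprost, 186 ± 23.4 with both agonists and 159 ± 54.8 with misoprostol. Serpinb1a was at 166 ± 59.5 CPM with vehicle, 152 ± 34.7 with sulprostone (108 to 171 in replicates 2 to 4), 164 ± 24.1 with rivenprost, 199 ± 29.5 with both agonists and 144 ± 29.5 with misoprostol. Neither gene passed edgeR's test in any comparison with vehicle or between agonists. Mpo was at 33.6 ± 15.47 CPM with vehicle, 269 ± 360.0 with sulprostone (14 to 261 in replicates 2 to 4), 44.8 ± 43.3 with rivenprost, 64.9 ± 58.6 with both agonists and 88.6 ± 70.98 with misoprostol. Elane was at 10.97 ± 15.9 CPM with vehicle, 163 ± 240.4 with sulprostone (0 to 138.5 in replicates 2 to 4), 17.4 ± 28.7 with rivenprost, 23.2 ± 27.6 with both agonists and 56.5 ± 47.3 with misoprostol. The sulprostone means and SDs of Mpo and Elane rest on replicate 1 and, less so, replicate 2.

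Among the specific granule genes the sulprostone group had an SD well above its mean. Ngp, Camp, Chil3 and Ltf had the highest means over the 20 libraries, and in the 19 without sulprostone replicate 1 Pglyrp1, at a median of 12.9 CPM, stood above the last 3. Ngp averaged 52.1 ± 37.7 CPM (mean ± SD, n = 4) with vehicle, 533 ± 1032 with sulprostone (2.52 to 27.4 in replicates 2 to 4), 25.1 ± 21.2 with rivenprost, 5.1 ± 5.44 with both agonists and 40.4 ± 26.1 with misoprostol. Camp averaged 7.09 ± 6.98 CPM with vehicle, 268 ± 516 with sulprostone (1.05 to 27.3 in replicates 2 to 4), 7.996 ± 8.81 with rivenprost, 1.12 ± 0.424 with both agonists and 0.88 ± 1.13 with misoprostol. Outside sulprostone, Camp did not reach 10 CPM in any group mean. Chil3 averaged 3.83 ± 5.03 CPM with vehicle, 172 ± 342 with sulprostone (0.0351 to 2.1 in replicates 2 to 4), 9.5 ± 9.29 with rivenprost, 0.121 ± 0.1 with both agonists and 0.0675 ± 0.0621 with misoprostol. Ltf averaged 7.01 ± 6.07 CPM with vehicle, 111 ± 221 with sulprostone (0 to 0.316 in replicates 2 to 4), 3.85 ± 4.65 with rivenprost, 1.47 ± 1.57 with both agonists and 1.1 ± 1.22 with misoprostol. The sulprostone values of all 4 genes rest on replicate 1, described above.

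Lyz2, S100a8, S100a9 and Anxa1 had the highest means of the cytosolic and secreted genes over the 20 HSC libraries, S100a8 and S100a9 through sulprostone replicate 1. In the other 19 libraries the medians of S100a8 and S100a9 were 6.27 and 7.39 CPM, under those of Padi4 (53.4) and Retnlg (13.4). Lyz2 stood at 504 ± 108 CPM (mean ± SD, n = 4) with vehicle, 1302 ± 1496 with sulprostone (477 to 642 in replicates 2 to 4), 572 ± 50.2 with rivenprost, 639 ± 80.5 with both agonists and 567 ± 139.9 with misoprostol. S100a8 stood at 13.5 ± 15.9 CPM with vehicle, 952 ± 1884 with sulprostone (2.74 to 22.0 in replicates 2 to 4), 21.7 ± 19.4 with rivenprost, 4.24 ± 1.39 with both agonists and 11.2 ± 9.04 with misoprostol. For S100a8 all groups but sulprostone had means under 25 CPM. S100a9 stood at 12.6 ± 8.83 CPM with vehicle, 771 ± 1530 with sulprostone (2.14 to 14.9 in replicates 2 to 4), 18.7 ± 14.8 with rivenprost, 5.72 ± 1.4 with both agonists and 13.2 ± 9.38 with misoprostol. Anxa1 was at 116.8, 124.6, 128.9 and 141.5 CPM in the 4 vehicle mice, and averaged 199 ± 117.7 with sulprostone (at most 151 in replicates 2 to 4), 169 ± 27.96 with rivenprost, 161 ± 23.5 with both agonists and 144 ± 28.8 with misoprostol. The vehicle group had the lowest mean of Lyz2 and Anxa1.

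Of the surface genes, Itgb2, Csf3r, Clec4d and Itgam were the most abundant in HSC in CPM. Itgb2 had 39.96 ± 3.54 CPM (mean ± SD, n = 4) with vehicle, 71.8 ± 44.9 with sulprostone (37.6 to 57.5 in replicates 2 to 4), 60.3 ± 10.3 with rivenprost, 58.9 ± 27.98 with both agonists and 57.5 ± 21.1 with misoprostol. Csf3r had 21.03 ± 11.8 CPM with vehicle, 33.1 ± 6.34 with sulprostone (25.4 to 33.8 in replicates 2 to 4), 52.5 ± 12.1 with rivenprost, 45.8 ± 20.2 with both agonists and 49.8 ± 21.3 with misoprostol. Vehicle had the lowest mean of both. Clec4d, a C-type lectin receptor, had 3.85 ± 3.02 CPM with vehicle, 7.6 ± 8.06 with sulprostone (2.64 to 4.88 in replicates 2 to 4), 8.07 ± 2.45 with rivenprost, 8.83 ± 3.64 with both agonists and 8.73 ± 3.31 with misoprostol. Itgam had 2.64 ± 2.63 CPM with vehicle, 4.54 ± 5.52 with sulprostone (0 to 6.96 in replicates 2 to 4), 5.7 ± 3.69 with rivenprost, 2.14 ± 2.43 with both agonists and 4.997 ± 4.15 with misoprostol.

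The library was rich in other marrow cell types as well. Erythroid markers summed to 11720 CPM there against 2640 to 3506 elsewhere, with 8 of 9 at their highest, Alas2 among them at 3645 against at most 231 CPM. Monocyte and macrophage markers summed to 2197 against 168 to 413 CPM (12 of 12 highest, with Ly6c2 at 323 against at most 26.6), mast cell, basophil and eosinophil markers to 2485 against 98.2 to 1574 (7 of 8), and B cell markers to 242 against 22.6 to 72.7 (5 of 5). T and NK markers summed to 397 against 138.4 to 374 CPM (3 of 5 highest) and mesenchymal markers to 190 against 8.69 to 41.4 (3 of 5). Their members did not all go the same way. Nkg7 was at 310.1 against at most 358.7 CPM, and Klrb1c at 6.787 against a median of 9.753 elsewhere. Pdgfrb was at its lowest there, at 0.04164 against 0.05205 to 24.78 CPM. Megakaryocyte markers (495 against 479 to 949) and endothelial markers (132.8 against 166 to 278) were not raised. Outside the listed genes and the cell type markers, the genes highest there over the next library included Ly6d (49.6-fold), Sparc, Hp (haptoglobin), Cldn13, Cd52, Ctse, Epb4.2, Slpi and Rhag (10.4-fold), which include erythrocyte genes (Epb4.2, Rhag). The part of these cells in the granulocyte values was not tested.

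The sulprostone comparison in HSC turned on this library. The median log2 fold change of the 31 genes was 2.96 with all libraries and 0.14 without replicate 1, where the median of all genes was 0.01 with all libraries. Of the 31, 29 had a higher fitted value with all libraries and 17 without replicate 1. No gene of the 31 passed edgeR's test (0.0147% of all genes did), 10 had an unadjusted p under 0.05 against 4.50% of all genes, and 3 did without replicate 1, against 3.41%. S100a8 was at 37.0, 3.34, 3.91 and 9.82 CPM with vehicle and 3778, 22.0, 4.79 and 2.74 with sulprostone. Apart from the first, the sulprostone mice lay within or just under the vehicle range. Its fitted log2 fold change was 5.39 ± 1.84 (adjusted p = 1) and 0.02 without replicate 1, that of S100a9 was 5.14 and -0.70, and that of Ngp 2.62 and -1.43. DESeq2 called S100a8 (5.46, adjusted p = 0.00651), S100a9 (5.20, adjusted p = 0.0106), Retnlg, a resistin-like secreted protein (3.66, adjusted p = 0.0127), and G0s2 with all libraries, and none of the 31 without replicate 1. The shares of all genes it called were 0.759% and 0.811%.

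Among the HSC libraries G0s2 was the 1 gene of the 31 with all sulprostone libraries above all vehicle libraries, a pattern of 1.02% of all genes. It had 235, 38, 50 and 12 counts with sulprostone and 0 in each vehicle library, and 73, 0, 64 and 57 with misoprostol, so no fold is given.

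For the other HSC comparisons the shares of all genes called were 0.494% with rivenprost, 0.545% with both agonists and 0.251% with misoprostol, and 0 of the 31 genes were called by edgeR. At an unadjusted p under 0.05 there were 3, 4 and 5 of 31, against 6.40%, 6.96% and 6.59% of all genes. DESeq2 called Il1b with rivenprost, Il1b and Fcnb with both agonists, and G0s2 with misoprostol, 1, 2 and 1 of 31 where it called 1.72%, 2.22% and 1.73% of all genes. Without sulprostone replicate 1 it called Il1b with rivenprost, Il1b and Ngp (-3.35, adjusted p = 0.0326) with both agonists, and Chil3 (adjusted p = 0.023) with misoprostol, where it called 1.95%, 2.33% and 1.92% of all genes. Chil3 had 6, 2, 3 and 0 counts with misoprostol and 177, 13, 0 and 372 with vehicle, so no fold is given. Fcnb, ficolin B, had 0 counts in 3 of 4 vehicle libraries and in all 4 with both agonists. The median log2 fold changes of the 31 were 0.19, 0.11 and 0.36, and -0.31 with both agonists once its replicate 2 was left out.

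Il1b stood apart from the granule genes in HSC. It was at 0.597, 0.0700, 4.66 and 5.92 CPM with vehicle and at 7.66, 1.06, 9.33 and 7.48 with sulprostone. It was at 21.3, 53.1, 50.4 and 46.9 CPM with rivenprost, 71.1, 22.7, 9.51 and 24.5 with both agonists and 26.9, 12.0, 5.69 and 6.72 with misoprostol. Every library of rivenprost and of both agonists lay above every vehicle library (with both agonists, a pattern of 2.42% of all genes), misoprostol and sulprostone overlapped vehicle, and the granulocyte-rich sulprostone library was at 7.66 CPM. The log2 fold change was 3.95 ± 0.97 with rivenprost (adjusted p = 0.0978), 3.45 with both agonists (adjusted p = 0.191) and 2.13 with misoprostol (adjusted p = 0.684) by edgeR. DESeq2 called the first (3.95, adjusted p = 0.000289) and the second (3.47, adjusted p = 0.00252). Over the alternatives the adjusted p for rivenprost ranged from 0.000283 to 0.237.

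With rivenprost 4 of the 31 genes had all libraries above all vehicle libraries, a pattern of 3.42% of all genes: Il1b, Csf3r, Itgb2 and Anxa1 (annexin A1, which restrains neutrophil recruitment). Csf3r was at 28.9, 4.08, 29.2 and 21.9 CPM with vehicle and 45.0, 40.5, 57.5 and 67.0 with rivenprost. Its fold change was 1.44 ± 0.44 (adjusted p = 0.324), and 1.08 without vehicle replicate 2, the low library. It was 1.18 with both agonists (adjusted p = 0.492) and 1.27 with misoprostol (adjusted p = 0.521). Anxa1 gave 0.39 and Itgb2 0.59 with rivenprost (adjusted p of 0.989 and 1). In the other direction, Ms4a3 with rivenprost and Ngp with both agonists had all libraries under all vehicle libraries, as did 2.34% and 2.15% of all genes.

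Cebpb in HSC was called with rivenprost, both agonists and misoprostol. Its levels ran from 81 to 156 CPM with vehicle and from 117.6 to 485 with sulprostone, where the highest was replicate 1 and the next 302. They ran from 562 to 1439 CPM with rivenprost, 458 to 1645 with both agonists and 402 to 1084 with misoprostol. The last 3 groups lay above vehicle without overlap, as did 3.42%, 2.42% and 1.47% of all genes with rivenprost, both agonists and misoprostol. Cebpb rose by 2.86 with rivenprost (adjusted p = 3.18e-05), 2.90 with both agonists (adjusted p = 2.14e-05) and 2.47 with misoprostol (adjusted p = 0.000242) on the log2 scale, by edgeR's quasi-likelihood test with Benjamini-Hochberg adjustment. Cxcl2, a neutrophil attractant, rose with both agonists (1.62, adjusted p = 0.0405), with an adjusted p of up to 0.228 over the alternatives. Cebpe, at no more than 1.92 CPM in 19 HSC libraries and at 9.83 in sulprostone replicate 1, was not called.

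**Figure D5:**
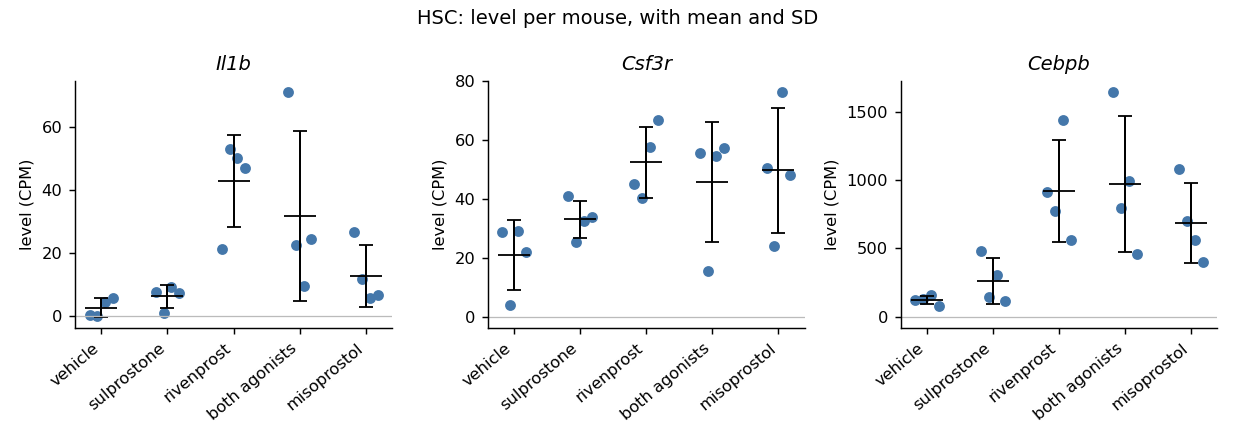
Levels of Il1b, Csf3r and Cebpb in HSC, in CPM, 1 point a mouse with the group mean and SD. The rivenprost mice lie above all vehicle mice in each panel, from 21.3 to 53.1 CPM for Il1b, and sulprostone overlaps vehicle in each.

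Comparisons among the 4 agonist groups of HSC, 6 pairs, called 0 of the 31 genes by edgeR. Of all genes, 0.332%, 0.243% and 0.0369% were called for rivenprost, both agonists and misoprostol against sulprostone, and 0% for the other 3 pairs. Summed over the pairs, 32 results of the 31 genes had an unadjusted p under 0.05, against 4.74% of the results of all genes, and 14 did without sulprostone replicate 1, against 4.29%. Of these 186 results DESeq2 called 19 with all libraries and 3 without sulprostone replicate 1, where it called 1% and 0.953% of the results of all genes.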

How the data were processed

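RNA-seq of 20 HSC and 32 stroma libraries from irradiated and non-irradiated mice was analysed from the gene counts that the authors deposited, which per the file headers are raw and not normalised. Per the submitters' processing notes the tools were STAR 2.5, Subread 1.5.1 with featureCounts, FastQC 0.11.5 and edgeR 3.36.0, on mm10. The authors' log2 CPM values, 52 deposited columns, were not used. No source used here states whether counting used strand, and overlapping genes cannot then be separated; Lyz2, Chil3, Serpinb1a, Orm1, Ifitm6 and Clec4d, which have close copies, are also uncertain.

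HSC libraries were made from 1 ng of RNA with SMART-Seq v4 and Nextera XT, and stroma libraries with a KAPA kit, per the labels' protocols. The test was the quasi-likelihood F-test of edgeR 4.0.16 in R 4.3.3 (TMM factors, robust fit), in 1 model for each fraction with group and sex as terms. All genes as deposited entered, adjusted p-values are Benjamini-Hochberg over all genes of a comparison, and log2 values used a prior count of 2. The residual degrees of freedom were 14 in HSC and 23 in stroma. The title numbers are read as 1 mouse each, so p-values measure the spread between mice. DESeq2 1.42.0, other size factors, filters on low counts, fits without sex, with title number range, with the compared groups alone and without single libraries were the alternatives. The fit with the summed level as a covariate, the block for sets of title numbers and DESeq2 without sulprostone replicate 1 were added after seeing the data. Figures and sums were made with Python 3.11.15. The fits were tested on simulated data with known changes.

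The members, the gene lists and the rule for the genes named were chosen with earlier results of these data known. Full values are given for members called in a comparison, for the 4 members of each role group with the highest mean level in a fraction, and for others that the text singles out after their values were seen, among them Mmp9, Cxcr2, Serpinb1a, Il1b, Csf3r and G0s2. The neighbouring lists were 30 other neutrophil genes and 12 granulopoiesis factors, of which called genes are named, and in the covariate fit those that most bear on the members. One gene outside the lists that the rule would name is not reported here.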

Additional observations from a re-analysis of the deposited data

Results flagged for a closer look

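In HSC after sulprostone, replicate 1 lay apart from the other 3 mice of its group by Dixon's criterion, under which chance marks about 1 in 20 groups. Its summed level of the 31 granulocyte genes was 19098 CPM, with a gap to the next mouse of 0.966 of the group's range, above the critical value for 4 samples. The specific granule genes summed to 4956 CPM (gap 0.989), the cytosolic and secreted genes to 11724 CPM (gap 0.991) and the surface genes to 366 CPM (gap 0.915). The azurophil sum was 2052 CPM against 257, 280 and 826 CPM and did not reach the critical value. These sums share 1 library, which was already known to be rich in these genes, so the criterion describes it and is no independent test.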

How the results depend on the processing

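No granulocyte gene was called by edgeR without the covariate in any comparison, under any planned size factor, filter, sex or number-range term or choice of groups in the fit, or with any single library left out. DESeq2 differed: it called 4, 1, 2 and 1 genes for sulprostone, rivenprost, both agonists and misoprostol in HSC and 19 over the HSC pairs, and 1 with both agonists, 2 with misoprostol and 1 over the pairs in stroma. It also called more of all genes: 0.759%, 1.72%, 2.22% and 1.73% in these HSC comparisons where edgeR called 0.0147%, 0.494%, 0.545% and 0.251%. The cause was not tested. DESeq2 without sulprostone replicate 1, an alternative added after seeing the data, called 0, 1, 2 and 1 genes in those HSC comparisons and 3 over the pairs, and gave -1.42 for Ngp and -0.71 for S100a9 with sulprostone. With single libraries left out, the HSC sulprostone value of Ngp ranged from -1.43 to 3.2 and that of S100a9 from -0.70 to 5.8, both negative only without sulprostone replicate 1, and without the 3 libraries sulprostone replicate 1, vehicle replicate 2 and misoprostol replicate 2, Lyz2, Ngp, S100a8 and S100a9 turned to -0.0029, -1.66, -0.34 and -0.79. In the fit with the summed level as covariate, leaving out single libraries gave 0 to 1 calls with both agonists (1 without vehicle replicate 2) and 0 to 1 with dmPGE2 (0 without dmPGE2 replicate 1 or 2 or vehicle replicate 3 or 4). With dmPGE2 without irradiation it gave 0 to 3 calls (1 without vehicle replicate 3 or 4, 0 without dmPGE2 replicate 4). For dmPGE2 against sulprostone it gave 0 to 1 calls (1 without sulprostone replicate 3, 0 without any other). No title number is shared between groups, but the numbers run in 4 sets of 1 sex with 1 mouse of each group. What a set is, the labels do not say. In the last stroma set the non-irradiated vehicle and dmPGE2 mice are numbered apart from the irradiated mice, so their place in it is assumed. A replicate block for these sets, added after seeing the data, called 0 granulocyte genes in every comparison by edgeR, with 16 at an unadjusted p under 0.05 with misoprostol in stroma (15 of them among the 22 without the block; 13.6% of all genes). Within sets the summed level was lower than with vehicle in 4 of 4 sets with both agonists, 3 of 4 with misoprostol and dmPGE2, and 2 of 4 with sulprostone, rivenprost and dmPGE2 without irradiation. Deviations from the group means correlated within sets at a median of 0.25 in stroma (-0.24 to 0.63; all 32 libraries were on average closest to their own set) and 0.03 in HSC (-0.06 to 0.12 over 40 pairs). Where a gene was at 0 counts, as G0s2 and Fcnb were in several HSC libraries, a level under the floor of 3 counts was not detectable.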
